A study of Homo sapiens with 32 samples.

Results

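Respiratory complex I is described here through the genes whose symbol starts with NDUF: its subunits and 7 of the factors that assemble it. A transcript cluster, the set of exon array probes assigned to one gene, was taken for a gene where the platform annotation gave it exactly 1 symbol and that symbol started with NDUF, with the cluster of highest mean signal kept per gene. This gave 34 genes of the 14207 genes with such a cluster, 27 of them subunits and 7 assembly factors. Of the 34 genes, 32 had a mean signal above background (26 subunits and 6 assembly factors) and were tested among 14167 clusters in all. NDUFB3, a small subunit of the membrane arm, had a mean log2 signal of 4.90 and NDUFAF2 one of 2.93, both under the background of 6.40, and neither was tested. The cluster named NDUFAF2 also stood apart by position: the gene lies on chromosome 5, whereas all 19 named neighbours of its cluster in array order lie on chromosome 2, so its value may not be that of the gene.

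Complex I (NADH:ubiquinone oxidoreductase) is the entry point of the mitochondrial respiratory chain. It takes electrons from NADH through a flavin and a chain of iron-sulfur clusters in an arm that reaches into the matrix, passes them to ubiquinone, and pumps protons across the inner membrane in its second, membrane-bound arm. The core subunits of the membrane arm are encoded by mitochondrial DNA, so the NDUF genes hold the core of the matrix arm, the accessory subunits around both arms, and assembly factors that build the enzyme from modules and are not part of the finished complex.

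The cells were 7 HapMap B-lymphoblastoid cell lines of the Coriell repositories, that is, B cells made to grow without limit by Epstein-Barr virus. All cultures received 200 µM 4-thiouridine (4sU) for 2 h, a uridine analogue that enters newly made RNA, and the labelled RNA was separated from the total RNA of the same culture. Nascent and total RNA were measured on 32 exon arrays, 16 for each, from 13 cultures. Independent cultures numbered 3 for each of GM07029, GM10835 and GM12813. The lines GM07019, GM12812, GM12814 and GM12815 had 1 culture. Arrays of GM12813 were run in duplicate and the duplicates averaged. No culture without 4sU was part of the analysis, so every group carries the label, and the viral transformation is common to all lines.

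The median log2 signal of an array was 6.74 to 6.95 for total RNA and 7.58 to 7.92 for nascent RNA, which leaves the nascent/total ratio without a natural zero: it is given relative to the other clusters of its culture. All 6 B cell markers on the array with 1 symbol were above background, with a mean total RNA level of 10.42 to 11.13 by line. Of 6 T and NK cell markers 1 was above background (NKG7; mean of the list 5.15 to 5.38 by line), of 3 monocyte markers none (4.53 to 4.83) and of 5 fibroblast and epithelium markers 3 (5.17 to 5.37). The array measures RNA of a whole culture, so fewer expressing cells and less RNA per cell cannot be told apart, and the number of arrays limits the precision.

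Promoters of the family are known as targets of the nuclear respiratory factors, among others NRF1 and the ETS family factor GABP. RefSeq promoter windows (GRCh38.p14) were found for 30 of the 34 genes. In the 250 bases before the start, on both strands, the letters GCGCNNGCGC (the NRF1 motif) were present in 5 of 30 genes (16.7%) against 8.7% of 27305 genes, CCGGAAG (the ETS core) in 4 (13.3%) against 10.2%, and CCATNTT (the YY1 core) in 4 (13.3%) against 14%. None of the matches shown overlaps another, and a match is a description of letters, not of binding. The windows with NRF1 letters are shown because they include the subunits NDUFA11, with a low ratio in all lines, and NDUFA9, and the assembly factor NDUFAF5, with a high one; capitals mark the match.
NDUFA9, chr12:4649024-4649053, plus strand: ttcttggttaGCGCTTGCGCagacaggcga
NDUFA12, chr12:95003794-95003823, minus strand: acctagctctGCGCACGCGCagagccacca
NDUFB10, chr16:1959490-1959519, plus strand: gtgcatcgcgGCGCCAGCGCgcagacgcag
NDUFA11, chr19:5903869-5903898, minus strand: ccggtccccgGCGCGTGCGCgcgatccatg
NDUFAF5, chr20:13784998-13785027, plus strand: ttggagtagacacaaaagccGCGCTGGCGC
The ETS letters are shown for the core subunit NDUFS3, whose window holds them on both strands, and for NDUFA1, whose total RNA differed most between lines; capitals mark the match.
NDUFS3, chr11:47578961-47578990, plus strand, match on the minus strand: cggaacctccgCTTCCGGctccacgtccgc
NDUFS3, chr11:47578980-47579009, plus strand: tccacgtccgcCCGGAAGaagatctgctgc
NDUFA1, chrX:119871774-119871803, plus strand, match on the minus strand: ttccgtcgcttCTTCCGGagccgtacgtgg

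The first comparison asked which NDUF transcripts had a nascent/total ratio above or below that of the median cluster over the 7 lines; the study used this ratio to estimate mRNA half-life. Called genes lay on both sides among subunits and among assembly factors. Of the 32 genes, 12 had a lower ratio (background: 31.7% of all clusters tested were called lower) and 7 a higher one (background 31.7%), and 19 were called in either direction (background 63.5%). The shares called in either direction (59.4%) and lower (37.5%) were near the background; the mean was below 0 for 19 of 32 genes (background 50.7%). Of 26 subunits 11 were lower, 5 higher and 10 not called, with a median of −0.40 (log2), and of 6 assembly factors 1 was lower, 2 higher and 3 not called, with a median of 0.11, against −0.01 over all clusters. These directions are relative: without centring, all clusters had a median of 0.77, subunits of 0.37 and assembly factors of 0.88. Of the 32 genes, 2 were then called lower and 20 higher. Most of all clusters were called higher in that setting too, a larger share than among the 32 genes. The share of the 32 genes called lower was near that of all clusters. Leaving out GM10835 moved the subunit median to −0.24, and leaving out GM12813 moved that of the assembly factors to 0.06. A ratio at least 2-fold lower was found for 3 subunits (background 5.93%). P-values come from limma on 1 value per line.

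**Figure D1:**
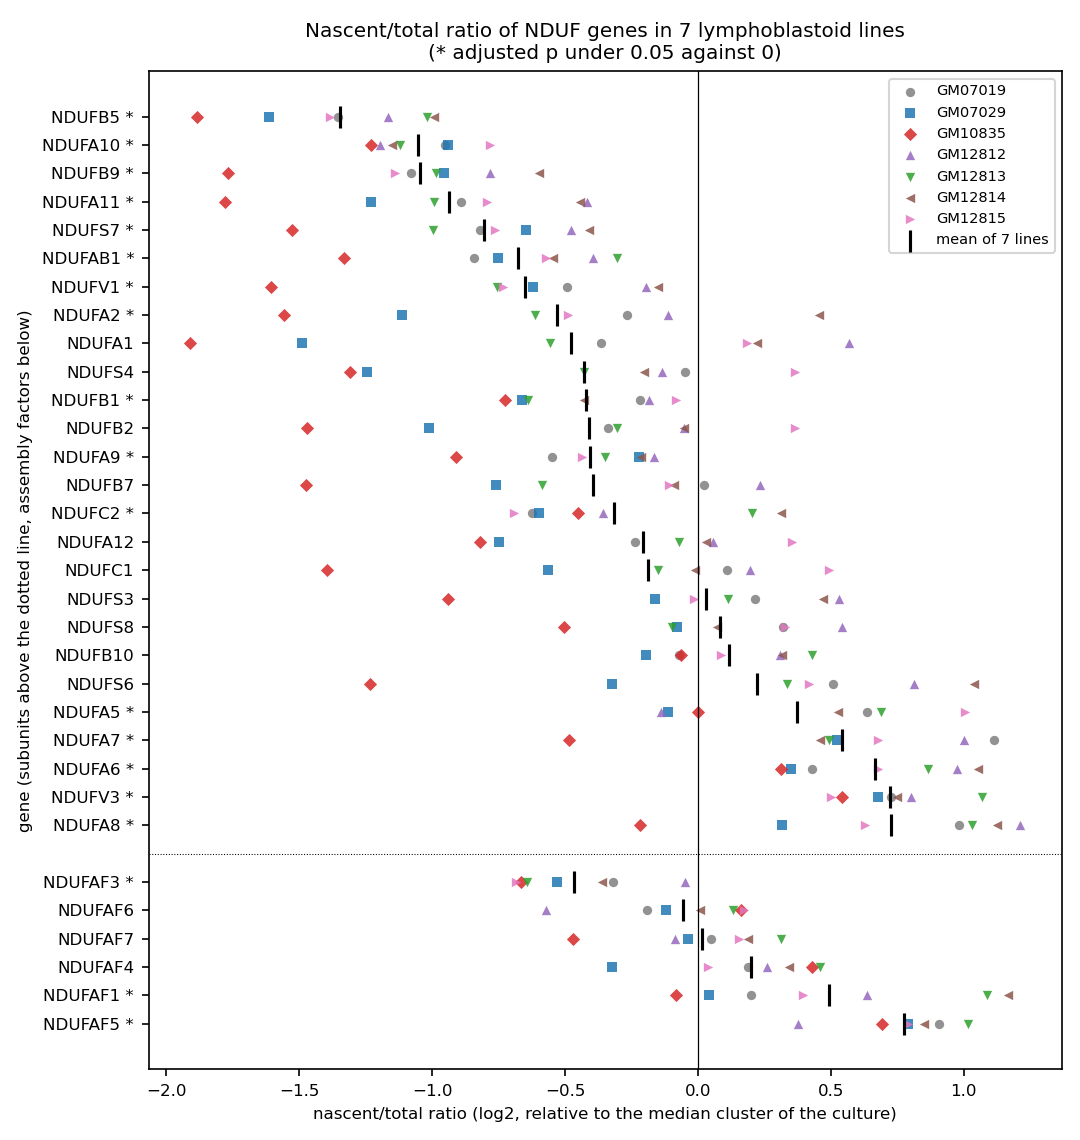
Nascent/total ratio (x axis, log2, relative to the median cluster of each culture) of the 32 tested NDUF genes (y axis), with 1 point per line and a bar at the mean of 7 lines; an asterisk marks genes called by limma. NDUFB5 lies lowest with a mean of −1.34, the assembly factor NDUFAF5 highest with 0.77, and the GM10835 points are the lowest of their gene for 24 of 32 genes.

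The 4 core subunits measured all belong to the matrix arm, and 2 of them were lower in the ratio (background 31.7%). NDUFS7, which holds the last iron-sulfur cluster before ubiquinone, ran from −1.53 to −0.41 with a median of −0.76 over the lines (mean −0.81 ± 0.38, SD, n = 7 lines; adjusted p = 1.27e-04). NDUFV1, which binds NADH and the flavin, ran from −1.61 to −0.15 with a median of −0.62 (mean −0.65 ± 0.49; adjusted p = 2.35e-03). Both were below 0 in all 7 lines. NDUFS3, a matrix arm subunit that carries no cofactor, had a mean of 0.03 ± 0.49 (adjusted p = 0.877), and NDUFS8, which carries a pair of iron-sulfur clusters, one of 0.08 ± 0.35 (adjusted p = 0.549). Neither was called, and both had lines on either side of 0.

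The accessory subunits of the membrane arm held the lowest ratios of the family. NDUFB5 ran from −1.88 to −0.99 with a median of −1.36 (mean −1.34 ± 0.32; adjusted p = 1.80e-06). NDUFA10, a subunit related to nucleoside kinases, ran from −1.23 to −0.78 with a median of −1.12 (mean −1.05 ± 0.16; adjusted p = 1.06e-06) and varied least between lines of all the genes called lower. NDUFB9, a subunit with the LYR motif that contacts the acyl carrier protein, had a mean of −1.04 ± 0.37 (median −0.99; adjusted p = 1.68e-05). In all 3 genes every line was below 0. NDUFA11, at the junction of both arms, followed with −0.94 ± 0.47 (range −1.78 to −0.42; adjusted p = 1.57e-04). Of 12 tested genes of this group 6 were lower, 1 higher and 5 not called (background 31.7% in each direction), with a median of −0.41. Of the 6, NDUFC2 (−0.32) was at the threshold (adjusted p = 0.0491): its call was lost under quantile normalization (0.0692), after removal of the ratio's dependence on signal (0.0752), with no filter (0.0849), with the first array of each technical pair (0.0504), with eBayes without trend (0.0570), and without GM07019 (0.129), GM07029 (0.127), GM10835 (0.0867), GM12812 (0.0800) or GM12815 (0.129). The higher one was NDUFA8, an intermembrane space subunit with CHCH domains, at 0.73 ± 0.52 (adjusted p = 1.84e-03), above 0 in every line but GM10835, where it was −0.22.

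Accessory subunits of the matrix arm were split: of 9 genes 4 were higher, 2 lower and 3 not called (background 31.7% in each direction), and the median of 0.22 was the value of NDUFS6. NDUFV3, a small subunit of the NADH-oxidising module, ran from 0.50 to 1.07 with a median of 0.73 (mean 0.72 ± 0.19; adjusted p = 2.17e-05). NDUFA6, a LYR motif subunit that binds the acyl carrier protein, ran from 0.31 to 1.05 (mean 0.67 ± 0.31; adjusted p = 2.38e-04). Both were above 0 in all 7 lines. A cluster shared by NDUFV3 and PKNOX1 was lower by limma, at −0.26 (adjusted p = 0.0201), and its signal cannot be assigned to 1 gene. NDUFA7 (0.54) and NDUFA5 (0.37, adjusted p = 0.0367) were also higher, and NDUFA9 (−0.41), which has a bound nucleotide near the ubiquinone site, and NDUFA2 (−0.53, adjusted p = 0.0306) were lower. The call of NDUFA5 was lost under quantile normalization (adjusted p = 0.0535), after removal of the ratio's dependence on signal (0.148), in the fit of 13 cultures with the line as a random block (0.0562), and without GM07019 (0.0945), GM12813 (0.100), GM12814 (0.0793) or GM12815 (0.103). That of NDUFA2 was lost without GM07029 (0.0888), GM10835 (0.0703), GM12813 (0.0664) or GM12815 (0.0526), and that of NDUFA9 after the same removal (0.0781). NDUFS6, a zinc-binding subunit, ran from −1.23 in GM10835 to 1.04 in GM12814, the widest span of the matrix arm subunits, and was not called (mean 0.22 ± 0.77; adjusted p = 0.401). NDUFS4, a late-joining subunit of the NADH-oxidising module, was at −0.43 (adjusted p = 0.0591) and NDUFA12 at −0.20 (adjusted p = 0.205), neither called. NDUFAB1, the mitochondrial acyl carrier protein that also serves fatty acid and iron-sulfur cluster synthesis, was lower at −0.68 ± 0.34 (range −1.33 to −0.31; adjusted p = 2.85e-04).

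Assembly factors differed from each other in direction. NDUFAF5, a hydroxylase that modifies a core subunit, had the highest mean ratio of the family, 0.77 ± 0.20 (range 0.38 to 1.02, median 0.79; adjusted p = 1.70e-05), but its mean total RNA signal of 5.92 was below background, so the ratio has an uncertain denominator. NDUFAF1, a factor of the intermediate assembly complex of the membrane arm, ran from −0.08 in GM10835 to 1.17 in GM12814 (mean 0.49 ± 0.49; adjusted p = 0.0137). NDUFAF3, which works with NDUFAF4 on an early matrix arm intermediate, was lower at −0.46 ± 0.23 and below 0 in all 7 lines (range −0.69 to −0.05; adjusted p = 7.90e-04). Its partner NDUFAF4 had a mean of 0.20 ± 0.27 and was not called (adjusted p = 0.0993). NDUFAF7, an arginine methyltransferase acting on a core subunit, was at 0.02 ± 0.25 (adjusted p = 0.899), and NDUFAF6 at −0.06 ± 0.27 (adjusted p = 0.624).

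The lines did not carry the same amount of these transcripts. Total RNA of all 26 tested subunits was highest in GM10835 among the 7 lines, and of 4 of 6 assembly factors, that is 30 of 32 genes (93.8%) where 30.2% of all clusters had their highest value in that line. The median over subunits was 9.50 in GM10835 and between 8.14 and 8.80 in the other lines, whereas the median over all clusters was 8.02 in GM10835 and between 7.70 and 8.06 elsewhere. GM10835 exceeded the next line by 0.10 to 1.74 log2 units with a median of 0.89 over subunits. In nascent RNA GM10835 was the highest line for 15 of 26 subunits and 5 of 6 assembly factors (62.5% of the 32 genes, background 35.6%), and the gap to the next line had a median of 0.09 over subunits. The nascent median over all clusters was itself highest in GM10835, at 9.07 against 8.49 to 8.88 elsewhere. That over subunits was 9.54 against 8.66 to 9.39. GM10835 had the lowest ratio of the 7 lines for 22 of 26 subunits and 2 of 6 assembly factors (75% of the 32 genes, background 22.6%). The subunit median of the ratio was −1.23 in GM10835, −0.63 in GM07029 and between −0.30 and 0.04 in the other 5 lines, and that of assembly factors lay between −0.08 and 0.39 in all 7. Medians over genes are given as descriptions without a test.

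**Figure D2:**
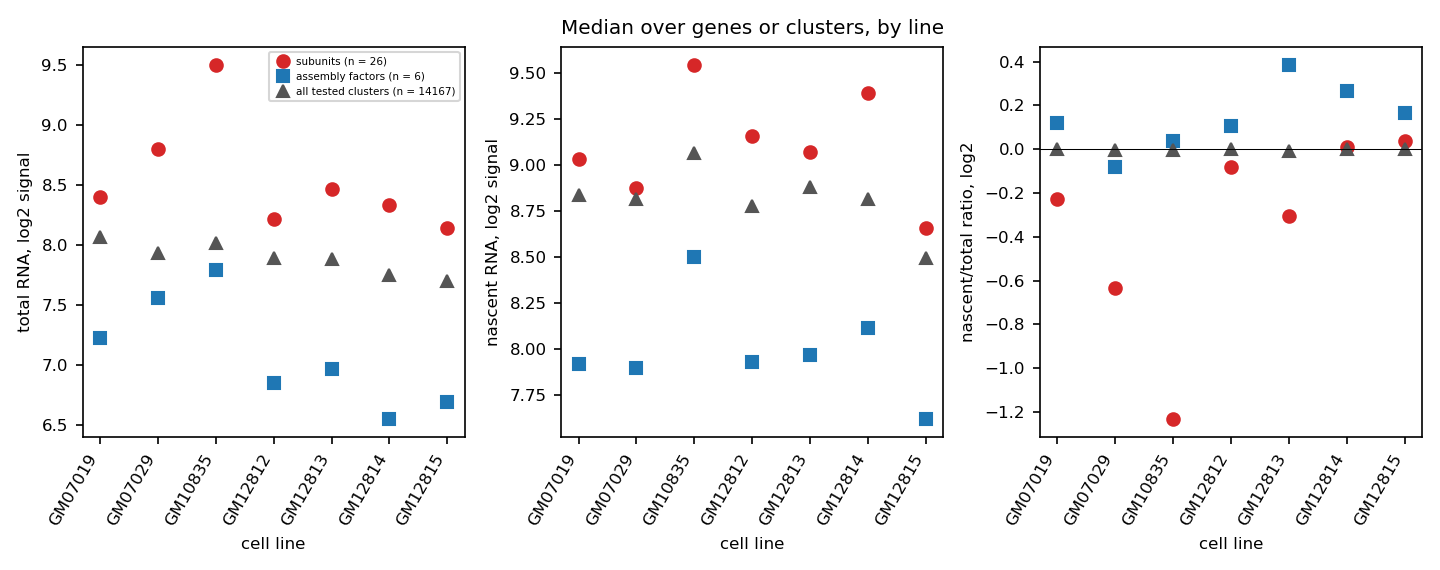
Median log2 value over 26 subunits, 6 assembly factors and all 14167 tested clusters (symbols) in each of 7 lines (x axis), for total RNA, nascent RNA and the nascent/total ratio (panels, each with its own y axis). Subunits stand at 9.50 in total RNA of GM10835, where their ratio median is −1.23, while all clusters stand at 8.02 and the assembly factor ratio at 0.04.

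Total RNA of GM10835 stood apart in single genes. NDUFV1 was at 10.91 in GM10835 and between 9.15 and 9.77 in the other 6 lines. NDUFC1, a small membrane arm subunit, was at 11.20 against 8.85 to 9.82. NDUFA7 was at 9.62 against 7.94 to 8.58. In each of them GM10835 was above every other line by more than 1 log2 unit. The step was small in NDUFA10, at 9.39 in GM10835 and between 9.10 and 9.29 in the others, and in NDUFB1, a single-span membrane subunit, at 8.53 against 8.09 to 8.33. NDUFA7 and NDUFB1 were chosen as examples after their values were seen. The SD between lines had a median of 0.520 in total RNA over the 32 genes against 0.278 over all clusters, and of 0.298 in nascent RNA against 0.275. In the ratio it was 0.392 against 0.261, beside a median difference of 0.221 between technical duplicates of GM12813 over the same genes. The largest such duplicate difference was 0.752, for NDUFA2.

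In total RNA, B cell markers had their lowest median in the same line: the level over the 6 markers was 10.30 in GM10835 and between 10.66 and 11.47 in the other lines. By limma 3 of 6 were lower in GM10835 than in GM07029 (background 18.9%) and 1 higher (background 29%). In nascent RNA their median was 10.80 in GM10835 and between 10.22 and 11.04 elsewhere. There 2 were lower (background 13.7%) and 2 higher (background 41.6%) than in GM07029. NKG7, the T and NK cell marker above background, was at 8.16 in GM10835 and between 7.25 and 7.78 elsewhere, while CD2, CD3D, CD3E, CD3G and CD8A had mean total RNA levels of 3.96 to 6.16, under background. The part of these differences in the NDUF result was not tested.

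The second comparison asked which transcripts differed among the replicated lines GM07029, GM10835 and GM12813, as the study did for half-life with an analysis of variance. By limma's moderated F test over 9 cultures, 29 of 32 genes differed in total RNA (background 56.3%), 28 in nascent RNA (background 56.7%) and 23 in the ratio (background 25.4%). Under quantile normalization the nascent count was 20 of 32 against 57.1% of all clusters. All 3 tests called 22 genes, and none called NDUFA10, NDUFAF5 or NDUFAF6. The share of all clusters called by all 3 tests was not computed. GM10835 had the highest mean of the 3 lines for 28 of the 29 genes called in total RNA, and for 4084 of 7972 clusters called. It was highest for all 28 genes called in nascent RNA (5542 of 8029 clusters called). In the ratio it was lowest for 21 of the 23 genes called (1524 of 3595 clusters called). As shares of all tested, these were 87.5%, 87.5% and 65.6% of the 32 genes. The shares of all clusters tested were 28.8%, 39.1% and 10.8%. In total RNA the 3 GM10835 cultures were all above the other 6 for 26 genes (background 23.2%), in nascent RNA for 24 (background 35.6%), and in the ratio all below for 17 (background 9.47%).

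Pairwise contrasts from the same fit gave the direction. They share lines, so they are not independent of each other. In total RNA GM10835 was higher than GM07029 for 26 genes (background 29%), 23 of them subunits, and lower for none (background 18.9%). GM12813 was lower than GM10835 for 28 genes (background 25.4%) and higher for none (background 12.6%). Between GM12813 and GM07029, 1 gene was higher (background 10.8%) and 7 were lower (background 13.7%) in GM12813. In nascent RNA GM10835 was higher than GM07029 for 29 genes (background 41.6%), and GM12813 was lower than GM10835 for 25 (background 32.4%) and higher than GM07029 for 7 (background 12.7%), with no gene called the other way in these 3 contrasts (backgrounds 13.7%, 11% and 5.65%). Under quantile normalization the count for GM12813 below GM10835 in nascent RNA was 15. GM10835 was then higher than GM07029 in nascent RNA for 22 genes and lower for 1. The shares of all clusters in these contrasts were not computed for that setting. The contrast of GM12813 with GM07029 depended on the cultures used: its 8 calls in total RNA became 2 without GM07029 replicate 3 and 5 without GM12813 replicate 2 or 3, and its 7 in nascent RNA became 14 without GM07029 replicate 1 and 3 or 4 without any other culture of these lines.

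The size of the difference was greater in total than in nascent RNA for most subunits. GM10835 exceeded GM07029 by a median of 1.01 over subunits in total RNA and 0.53 in nascent RNA, where the medians over all clusters were 0.10 and 0.16. For assembly factors the medians were 0.38 and 0.52. The difference was larger in total RNA for 21 of 26 subunits and 4 of 6 assembly factors against GM07029, and for 26 of 26 and 4 of 6 against GM12813. The share of all clusters with a larger difference in total RNA was not computed. For GM12813 minus GM10835, subunits had medians of −1.16 in total and −0.37 in nascent RNA. Those of assembly factors were −0.63 and −0.33, and those of all clusters −0.05 and −0.09. The ratio was lower in GM10835 than in GM07029 for 13 genes (background 6.23%), 12 of them subunits, and higher for none (background 7.64%). Without GM10835 replicate 3, or with no filter on low signal, that count was 8. It was higher in GM12813 than in GM10835 for 24 genes (background 12.7%), 22 of them subunits, and lower for none (background 10.4%). Between GM12813 and GM07029 it was higher in GM12813 for 6 genes (background 4.91%) and lower for none (background 0.889%), a count that was 0 without GM07029 replicate 3 or GM12813 replicate 3, 1 without GM12813 replicate 2 and 13 without GM07029 replicate 1.

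**Figure D3:**
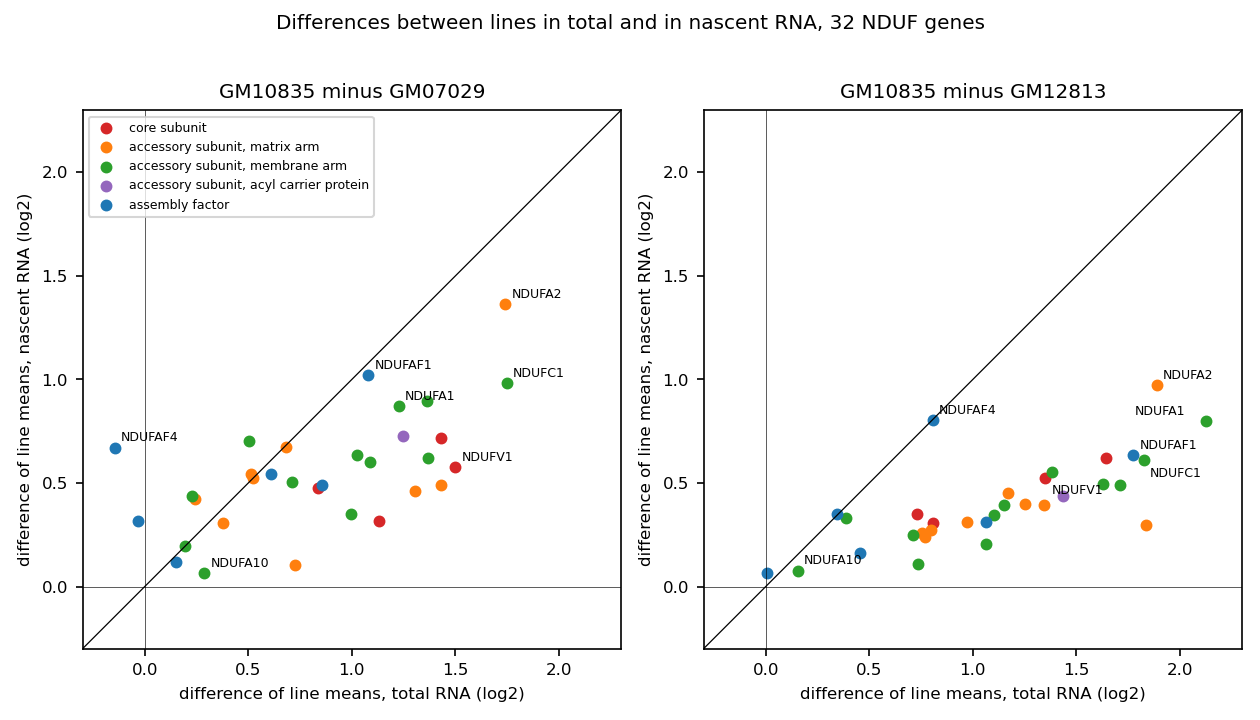
Difference of line means in total RNA (x axis, log2) against nascent RNA (y axis, log2) for the 32 tested genes, coloured by role, for GM10835 minus GM07029 (left) and GM10835 minus GM12813 (right); the diagonal marks equal differences. On the right all 26 subunits lie below the diagonal, and on the left 21 of 26 do, while NDUFAF4 lies above it on the left. The share of all clusters below the diagonal was not computed.

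NDUFA1, a single-span membrane arm subunit encoded on the X chromosome, had the largest range of line means in total RNA. Its log2 signals were 10.001, 10.27 and 10.65 in the 3 cultures of GM07029, 11.51, 11.47 and 11.62 in GM10835, and 9.99, 9.21 and 9.03 in GM12813. GM10835 was above every other culture, by 2.12 over GM12813 and 1.23 over GM07029 in the means (F test adjusted p = 7.53e-05). In nascent RNA the means were 9.58, 10.45 and 9.65, a range of 0.87, and the ratio was −1.49 ± 0.36, −1.91 ± 0.05 and −0.56 ± 0.53 (SD, n = 3 cultures; F test adjusted p = 0.00724). GM10835 and GM07029 were not called apart in the ratio (adjusted p = 0.260).

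NDUFC1 had the smallest adjusted p of the family in total RNA. Total RNA was 9.35, 9.31 and 9.69 in GM07029, 11.31, 11.17 and 11.11 in GM10835, and 9.56, 9.30 and 9.26 in GM12813 (F test adjusted p = 2.58e-06). Nascent RNA was 9.79, 9.64 and 9.52, then 10.64, 10.61 and 10.65, then 10.16, 9.95 and 9.96 (adjusted p = 8.49e-06). GM10835 was above all other cultures in both fractions, by 1.75 over GM07029 in total RNA and by 0.98 in nascent RNA, and its ratio was −1.39 ± 0.10 against −0.56 ± 0.28 and −0.15 ± 0.03 (adjusted p = 6.65e-04).

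NDUFA2, a matrix arm subunit with a thioredoxin-like fold, had the largest range in nascent RNA. Its nascent signals were 8.63, 8.43 and 8.35 in GM07029, 9.94, 9.79 and 9.76 in GM10835, and 8.87, 8.85 and 8.85 in GM12813 (F test adjusted p = 1.04e-06). Total RNA was 8.88, 8.55 and 9.03, then 10.69, 10.58 and 10.42, then 9.17, 8.58 and 8.27 (adjusted p = 4.43e-05). Here both fractions were higher in GM10835, by 1.36 and 1.74 over GM07029, and the ratio of the pair was not called apart (adjusted p = 0.139).

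NDUFS6 had the largest range of ratios. GM07029 cultures were at −0.19, −0.07 and −0.71, GM10835 cultures at −1.26, −1.12 and −1.32, and GM12813 cultures at 0.08, 0.37 and 0.56 (adjusted p = 6.94e-04). The 3 lines did not overlap. Total RNA means were 8.51, 9.81 and 7.98, a range of 1.84, and nascent means 8.95, 9.41 and 9.11, a range of 0.46. NDUFA8 (ratio 0.32, −0.22 and 1.03 in the same order, adjusted p = 0.00133) and NDUFB2, a small membrane arm subunit (−1.01, −1.47 and −0.30, adjusted p = 0.00520), kept the same order of line means. By pairwise contrast of the ratio, GM12813 and GM07029 were not called apart in NDUFS6 (adjusted p = 0.0520) or NDUFB2 (0.0568). Nor were GM10835 and GM07029 in NDUFB2 (0.132). Every pair was called apart in NDUFA8.

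All 4 core subunits differed between the lines in total RNA. For NDUFV1 the cultures of GM07029 were at 9.37, 9.29 and 9.56, those of GM10835 at 10.97, 10.88 and 10.88, and those of GM12813 at 9.72, 9.49 and 9.46 (adjusted p = 3.79e-06). NDUFS3 had means of 9.36 ± 0.27, 10.79 ± 0.05 and 9.14 ± 0.20 (adjusted p = 1.35e-05). NDUFS7 had means of 7.41 ± 0.06, 8.54 ± 0.14 and 7.74 ± 0.07 (adjusted p = 1.76e-05), and was the gene called higher in GM12813 than in GM07029 (adjusted p = 0.0374). NDUFS8 had means of 7.05 ± 0.02, 7.88 ± 0.21 and 7.16 ± 0.07 (adjusted p = 1.85e-04). In all 4 the nascent RNA of GM10835 was higher too, with differences over GM07029 of 0.58, 0.72, 0.32 and 0.47 where those of total RNA were 1.50, 1.43, 1.13 and 0.84.

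**Figure D4:**
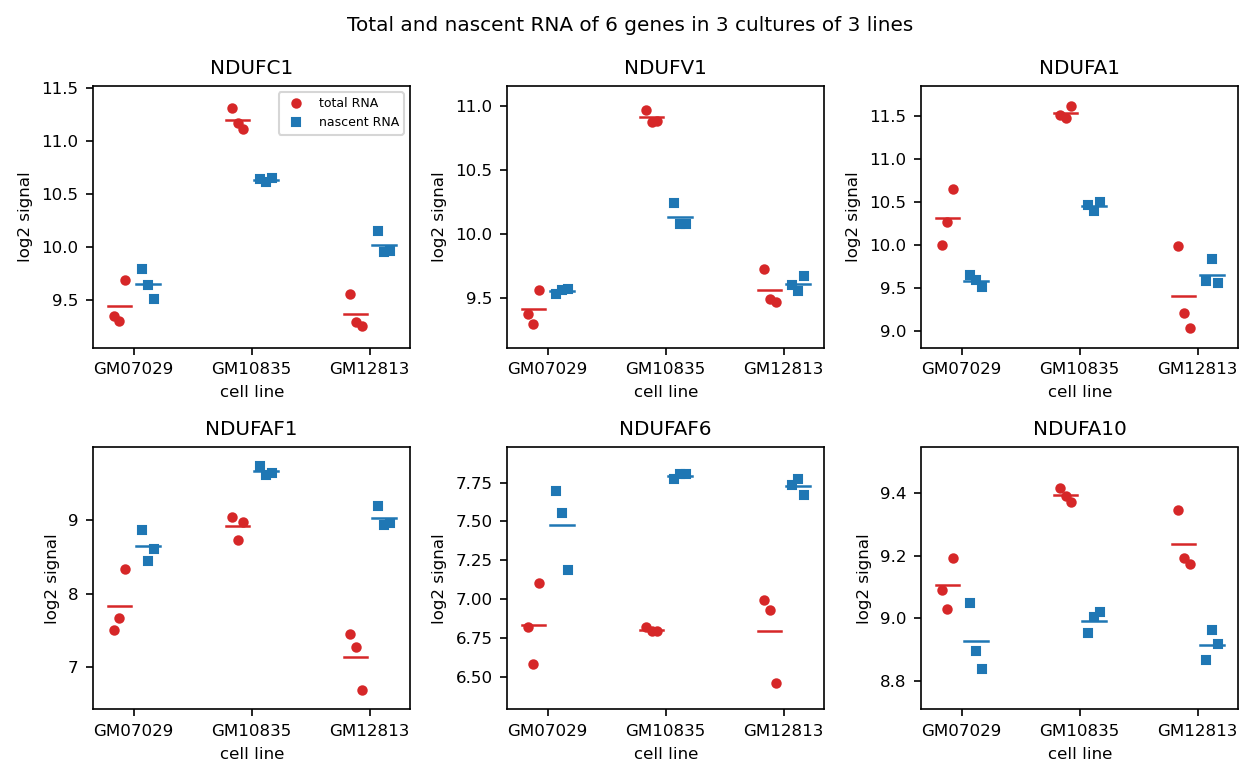
Log2 signal (y axis, a scale of its own per panel) of total RNA (circles) and nascent RNA (squares) in each of 3 cultures of GM07029, GM10835 and GM12813 (x axis), with a bar at the mean, for 4 subunits and 2 assembly factors. NDUFC1, NDUFV1 and NDUFA1 have both fractions highest in GM10835 with the larger step in total RNA. NDUFAF6 and NDUFA10 were not called by the F test in either fraction. By pairwise contrast with GM07029, GM10835 was higher for NDUFA10 in total RNA (adjusted p = 0.0322) and for NDUFAF6 in nascent RNA (adjusted p = 0.0419).

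Assembly factors differed among themselves in how the lines compared. Total RNA of NDUFAF1 was at 7.50, 7.67 and 8.33 for GM07029, 9.05, 8.73 and 8.98 for GM10835, and 7.46, 7.28 and 6.68 for GM12813 (adjusted p = 2.71e-04). Its nascent means were 8.64, 9.66 and 9.03 (adjusted p = 4.62e-05), a step from GM07029 to GM10835 of 1.02 against 1.08 in total RNA, and the ratio of that pair was not called apart (adjusted p = 0.724). NDUFAF7 was higher in total RNA of GM10835, with means of 8.54, 9.40 and 8.33 (adjusted p = 7.97e-05), and lower in the ratio, with −0.04, −0.47 and 0.31 (adjusted p = 0.00307). NDUFAF3 had total RNA means of 7.78, 8.39 and 8.05 (adjusted p = 0.0107) and ratios of −0.53, −0.66 and −0.64 (adjusted p = 0.774).

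NDUFAF4 was the gene called in total RNA for which GM10835 was not the highest of the 3 lines. The means of GM07029, GM10835 and GM12813 were 7.33 ± 0.06, 7.19 ± 0.18 and 6.38 ± 0.30 (adjusted p = 6.38e-04), and its nascent means were 7.77 ± 0.60, 8.45 ± 0.20 and 7.64 ± 0.09 (adjusted p = 0.0224). NDUFAF6 was at 6.84 ± 0.26, 6.80 ± 0.02 and 6.80 ± 0.29 in total RNA (adjusted p = 0.967), and NDUFAF5 at 6.12, 6.27 and 5.81 (adjusted p = 0.0914), both near background.

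The other genes of the respiratory chain give the setting. The lists of complexes II to V hold assembly factors as well as subunits. Of 12 assembly factors of complex I not named NDUF, 5 were higher and 5 lower in the ratio over 7 lines (median −0.14). The background was 31.7% in each direction, here and for the complexes below. AIFM1, a flavoprotein needed for import of assembly proteins, was at 1.76 ± 0.50, and TMEM186, a member of the membrane arm assembly complex, at 0.85 ± 0.25. The mean total RNA signal of AIFM1, 6.60, was near the background of 6.40, so its ratio has an uncertain denominator. In the other complexes lower ratios were found for 4 of 6 genes in complex II (median −0.55), 6 of 11 in complex III (−0.42), 10 of 18 in complex IV (−0.37) and 8 of 13 in complex V (−0.41), with 2, 0, 4 and 2 higher. Among them SDHC, a membrane anchor of succinate dehydrogenase, was at −2.17 ± 0.87, UQCRC2, a core protein of complex III, at −1.01 ± 0.26, and ATP5F1C, the central stalk of ATP synthase, at −1.27 ± 0.18. COX4I1, a subunit of cytochrome c oxidase, was at 2.59 ± 0.33, and COX6B1 of the same complex at −1.17 ± 0.48. SDHAF4 (−0.92), LYRM7 (−1.04) and ATP5F1A (−1.002) were the other genes named by size of the mean ratio, regardless of sign, in their lists.

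In total RNA of GM10835 against GM07029, 10 of 12 of these assembly factors were higher, and 3 of 6, 8 of 11, 13 of 18 and 11 of 13 genes of complexes II to V (background 29%, as for the NDUF genes); 1 gene of complex III was lower and none of the other lists. In nascent RNA 11 of 12 assembly factors were higher, and 5, 7, 15 and 12 genes of complexes II to V (background 41.6%). The median difference in total RNA was 0.72 for the assembly factors and 0.50, 0.92, 0.68 and 0.78 for complexes II to V. It was 1.01 for complex I subunits alone and 0.85 for all 32 NDUF genes. The latter is the like value, since the lists of complexes II to V also mix subunits with assembly factors. No test was made between these lists.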

How the data were processed

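The values are log2 gene-level signals of exon array transcript clusters, 1 column per array, as deposited by the authors. Affymetrix Power Tools and hg18 are named in the submitters' processing notes. How probes were summarised and background-corrected, and whether both fractions were normalized as 1 set, is not given in the sources used here. The platform annotation gave 1 symbol to 14405 of 21788 clusters, several to 2365 and none to 5018. The 95th percentile of the mean signal of 216 olfactory receptor clusters (6.40) served as background, and 14167 clusters above it were tested.

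Technical duplicates were averaged, total was subtracted from nascent log2 signal within each culture, and this ratio was centred on the median tested cluster. It was tested against 0 over 7 lines (1 value per line) with limma 3.58.1 (R 4.3.3; lmFit, eBayes with trend, two-sided), and 9 cultures of 3 lines were compared with the moderated F test and its pairwise contrasts. P-values were adjusted by Benjamini and Hochberg over all tested clusters; "higher", "lower" and "called" mean an adjusted p under 0.05. The code was tested on simulated data.

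Alternatives were no centring, quantile normalization within each fraction, removal of the ratio's dependence on signal, no filter, 1 array per technical pair, eBayes without trend, 13 cultures with the line as a random block, a fit over all 7 lines, a replicate block, every NDUF cluster including those with several symbols, and leaving out each culture or line. The members, roles and lists were chosen with earlier results of these data known. Described in detail are the 6 lowest and 4 highest called ratios of 1 sign in all 7 lines (3 qualified as highest), all core subunits and assembly factors, the 6, 4 and 4 largest ranges between lines in the ratio, total and nascent RNA, and 2 genes per further list.

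Deviations of same-numbered cultures from their line means correlated at −0.46 to 0.39 between lines, so the numbers were not taken to pair cultures.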

Additional observations from a re-analysis of the deposited data

Results flagged for a closer look

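Values that stand far from the other lines of their gene were looked for in the 32 genes, in each of total RNA, nascent RNA and the ratio, with Dixon's criterion over 7 lines, which chance meets in about 1 of 20 groups. It was met by 18 of 96 sets of values, and 17 of the 18 were GM10835. The sets share arrays and the criterion was not applied to all clusters, so this count has no background share. Of all clusters, 30.2% had their highest total RNA in GM10835. In total RNA GM10835 was far above the next line in 14 genes. Among core subunits it was at 10.91 in NDUFV1, 10.79 in NDUFS3, 8.54 in NDUFS7 and 7.88 in NDUFS8. Among accessory subunits it was at 10.56 in NDUFA2, 9.62 in NDUFA7, 9.81 in NDUFS6, 11.11 in NDUFAB1, 8.98 in NDUFA8, 9.41 in NDUFA11, 9.79 in NDUFB7, 10.72 in NDUFB9 and 11.20 in NDUFC1. The assembly factor among them was NDUFAF7, at 9.40. In the ratio GM10835 was far below the next line in NDUFA7, at −0.48, and in NDUFV1, at −1.61. In nascent RNA it was far above in NDUFS4, at 8.41. GM12815, a line with 1 culture, was far below the others in nascent RNA of NDUFA9, at 9.78.

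The ratio differed between GM07029, GM10835 and GM12813 by the moderated F test in 23 genes, and the range of the 3 line means is given for each. It was 1.05 in NDUFS3, 0.99 in NDUFV1, 0.88 in NDUFS7 and 0.43 in NDUFS8 of the core. Accessory subunits of the matrix arm gave 1.57 in NDUFS6, 1.01 in NDUFA7, 0.94 in NDUFA2, 0.88 in NDUFS4, 0.80 in NDUFA5, 0.69 in NDUFA9 and 0.53 in NDUFV3, and the acyl carrier protein NDUFAB1 gave 1.03. Those of the membrane arm gave 1.35 in NDUFA1, 1.25 in NDUFA8, 1.24 in NDUFC1, 1.17 in NDUFB2, 0.89 in NDUFB7, 0.86 in NDUFB5, 0.81 in NDUFB9, 0.80 in NDUFC2 and 0.79 in NDUFA11. The assembly factors were NDUFAF1 with 1.17 and NDUFAF7 with 0.78.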

How the results depend on the processing

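The count of genes called in the ratio over 7 lines ran from 17 to 22 over the alternatives on the 32 genes, and from 17 to 20 with a line left out. With every NDUF cluster taken, also those with several symbols, 28 of 43 clusters were called (background 63.5%). Of these 17 were lower and 11 higher (background 31.7% in each direction). Without centring the subunit median was 0.37 and the assembly factor median 0.88; with a line left out they ran from −0.45 to −0.24 and from 0.06 to 0.16. The means that changed sign without centring were those of NDUFA1 (0.29), NDUFA12 (0.57), NDUFA2 (0.24), NDUFA9 (0.37), NDUFAB1 (0.10), NDUFAF3 (0.31), NDUFAF6 (0.72), NDUFB1 (0.35), NDUFB2 (0.36), NDUFB7 (0.38), NDUFC1 (0.58), NDUFC2 (0.46), NDUFS4 (0.34) and NDUFV1 (0.12), which follows from the shift of all clusters. Uncalled means near 0 changed sign for NDUFS8 (−0.018, dependence on signal removed) and NDUFS3 (−0.021 over 13 cultures), and with a line left out for NDUFS3 (range −0.054 to 0.19), NDUFC1 (−0.30 to 0.012, the latter without GM10835), NDUFAF6 (−0.096 to 0.028) and NDUFAF7 (−0.033 to 0.097).

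Between lines, quantile normalization gave 10 calls in the ratio and 13 in total RNA for GM12813 against GM07029, and 15 in nascent RNA for GM12813 against GM10835. With no filter on low signal, GM10835 against GM07029 gave 8 calls in the ratio, and GM12813 against GM07029 gave 0, 5 and 4 in the ratio, total and nascent RNA. The first array of each technical pair gave 1 and 5 for that contrast in the ratio and total RNA. The cause of these changes was not tested, and shares of all clusters in these contrasts were not computed for the alternatives. With a culture left out, the F test counts ran from 19 to 28 in the ratio, 28 to 30 in total and 25 to 30 in nascent RNA. The pairwise counts for GM10835 against GM07029 ran from 8 to 14, 22 to 26 and 25 to 30, for GM12813 against GM07029 from 0 to 13, 2 to 10 and 3 to 14, and for GM12813 against GM10835 from 19 to 25, 27 to 30 and 19 to 27, in the same order. A replicate block, though the numbers do not pair cultures, gave 3 calls in the ratio for GM12813 against GM07029 and F test counts of 23, 28 and 26. GM10835 was the highest line in total RNA for 25 of 26 subunits under quantile normalization and for 26 with any of its cultures left out, alternatives chosen after seeing the data. Signal near background limits NDUFAF5, NDUFB3 and NDUFAF2. Total RNA was also below background for NDUFA5 in GM12815 (5.69), the line of its highest ratio. The same held for NDUFAF4 in GM12812 (6.30), GM12813 (6.38) and GM12815 (6.25).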

Other observations

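Clusters that carry an NDUF symbol beside another symbol were left out of the comparisons, since their signal cannot be assigned to 1 gene. Of 14 such clusters, some of them of genes described above, 11 were above background. By limma over 7 lines, NDUFV3 with PKNOX1 was lower at −0.26 ± 0.21 (adjusted p = 0.0201), against 0.72 in the single-symbol cluster of NDUFV3. NDUFC1 with MGARP was higher at 0.35 ± 0.15 (adjusted p = 0.00194), against −0.19 in its single-symbol cluster. NDUFA1 with RNF113A stood at 0.13 ± 0.38 (adjusted p = 0.393), against −0.48 in that of NDUFA1. The cluster of NDUFS1, the largest iron-sulfur subunit, with GCSHP3 stood at a ratio of 0.31 ± 0.32 (mean ± SD over 7 lines), that of NDUFB8 with SEC31B one of −0.01 ± 0.61, and that of NDUFS5 with RPL10 one of −0.91 ± 0.48. The clusters of NDUFA13 with TSSK6 (−0.90 ± 0.49), NDUFB11 with RBM10 (−0.68 ± 0.54) and NDUFA3 with TFPT (−0.64 ± 0.69) were also below 0 in their mean. Both other NDUFA13 clusters were above 0, at 0.28 ± 0.12 with YJEFN3 (adjusted p = 0.00589) and at 0.37 ± 0.22 in a further cluster with TSSK6 (adjusted p = 0.00338).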
